A study of Mus musculus with 12 samples.

Results

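The 6 male libraries of this series, 3 of ARG1+ and 3 of ARG1- microglia, were compared gene by gene. They are the libraries S10, S11 and S12, labelled positive, and the libraries S7, S8 and S9, labelled negative, 6 of the 12 libraries in all, and genes on the X and Y chromosomes were left out. Every library came from male YARG mice at postnatal day 13, a reporter strain in which YFP is placed downstream of the Arg1 stop codon, so that YFP marks cells that make arginase-1 (ARG1). The forebrain tissue ventral to the corpus callosum of several brains was pooled for each library, and CX3CR1+ CD206- cells were sorted into YFP+ and YFP- populations, called ARG1+ and ARG1- here. The question was which genes and functions differ between ARG1+ microglia and their ARG1- neighbours in males. The methods give 3 litters per sex, from whose pooled brains both populations were sorted, but the labels do not tie an ARG1+ library to an ARG1- library, so litter could not enter the test. Each library stands for a pool, and p-values measure the spread between these pools. The other 6 libraries are females of the same strain and age and enter only where named.

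Microglia are the resident macrophages of the brain, and they survey the tissue, clear debris and prune connections. In the undisturbed adult brain they express a homeostatic set of genes that includes the receptor P2ry12 and the surface protein Tmem119. Around developing white matter and in disease, some microglia lower that set and express genes of lipid handling, lysosomal digestion and secretion such as Apoe, Lpl, Spp1 and Igf1. ARG1 splits arginine into ornithine and urea and is widely used as a marker of macrophages activated by interleukin-4.

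The Arg1 gene (ENSMUSG00000019987, GRCm38 chromosome 10, 24915221 to 24927484) had 0 counts in each of the 6 male libraries. A count of 0 allows up to 3 counts, which is 0.0633 to 0.101 CPM (counts scaled to a common library size) across these libraries. In these libraries the transcript therefore gave no check of the sort, and the names of the populations rest on YFP. Among the ARG1+ females, Arg1 had 0, 2 and 52 counts in S4, S5 and S6. The study reports that RT-qPCR on cells sorted in this way found Arg1 only in the YFP+ population. It also reports ARG1 and YFP protein in the same cells of this strain. Both populations expressed microglial markers at high levels. P2ry12, a purinergic receptor, was at 9519, 10920 and 10640 CPM in the ARG1- libraries and at 6777, 5172 and 7002 CPM in the ARG1+ libraries. Csf1r, the receptor for the growth factor that keeps microglia alive, was between 11460 and 20430 CPM in all 6, with overlap between the groups.

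The 6 libraries held 30954399 to 46569667 counts. The ARG1- libraries differed more from each other (1.61 to 1.90 log2 CPM, root mean square over genes) than the ARG1+ libraries did (0.821 to 0.882). Of 10069 genes with a mean over 5 CPM in the ARG1+ libraries, 17, 95 and 143 had at most 3 counts in S7, S8 and S9, and 0 did in any ARG1+ library. Because these genes were picked by their ARG1+ mean, the 0 was largely set by the selection. Genes picked by their ARG1- mean were not counted, so these numbers do not compare the groups. The mitochondrial genome took 0.531% to 0.636% of the counts in ARG1- libraries and 0.147% to 0.253% in ARG1+ libraries. Of its 15 listed genes, 5 had at most 3 counts in every library, so these shares rest largely on its other genes. The spread and the mitochondrial share run with the groups. The part of these differences and of the low counts in the results was not tested. Libraries of 1 group differed from each other by more than sampling noise (chi-square per degree of freedom 52.6 to 131), which covers counting error only.

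Apoe was the gene that rose in ARG1+ males. It encodes apolipoprotein E, the main lipid carrier of the brain (ENSMUSG00000002985, chromosome 7, 19696109 to 19699188). Its level was 2862, 3148 and 2635 CPM in the ARG1- libraries and 13470, 9447 and 10660 CPM in the ARG1+ libraries, so every ARG1+ library stood far above every ARG1- library. The means were 2881 ± 257 and 11190 ± 2065 CPM (SD, n = 3 each), a log2 fold change of 1.96 ± 0.15 (SE) with an adjusted p of 0.0423 in edgeR's quasi-likelihood test. The log2 difference was 1.91 among the libraries whose labels carry the lower sample numbers (S7, S8, S10 and S11) and 2.02 between those with the higher numbers (S9 and S12). The direction held in every alternative run, but the call did not. The adjusted p was 0.14 with a term for the libraries with the higher label numbers, 0.0552 with upper-quartile factors, 0.0621 with robust estimation and between 0.0826 and 0.291 with any 1 of the 6 libraries left out. In bulk RNA, more cells with a transcript and more transcript per cell cannot be told apart.

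Apoe was 1 of 14906 genes tested in the 6 libraries, 0.00671%, that passed at an adjusted p of 0.05. A further 25 genes shared an adjusted p of 0.0709 (13 higher and 12 lower), 831 were under 0.1, and 3006 had an unadjusted p under 0.05 (1433 higher and 1573 lower). On the same 6 libraries the DESeq2 Wald test called 1728 genes, 850 higher and 878 lower. In all 3 ARG1+ libraries 2240 genes (15%) were above all 3 ARG1- libraries, and 2245 (15.1%) were below. Because the comparison on 6 libraries called 1 gene, the calls quoted below are those of the male contrast in an edgeR fit of all 4 groups over 12 libraries, in which the spread is estimated from more libraries. That fit called 823 of 16407 genes, 333 higher in ARG1+ (2.03%) and 490 lower (2.99%). Of these, 811 were also tested in the 6 libraries alone, and for all 811 the ARG1+ and ARG1- males did not overlap and lay in the same direction. The male contrast of that fit rests on the same 6 male libraries, so this overlap is not independent evidence for its calls. Below, a gene is said to be called only by that fit, fold changes are those of the 6 libraries, and each list is set beside the shares and the median of all genes tested (median log2 fold change 0.03). The contrast also ran with gene length, and fold changes after each library's trend with exonic length was taken out (the length offset, added after the data had been seen) are given where they differ by over 1.5 times.

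Lipid handling genes stood higher in ARG1+ males as a group. Of 34 tested members of 39 listed, 19 were above in all 3 ARG1+ libraries and 0 were below, 8 were called higher and 0 lower, and the median log2 fold change was 0.66. Lpl, the lipase that frees fatty acids from lipoproteins, was at 77.4, 91.4 and 122 CPM in ARG1- and at 241, 237 and 321 CPM in ARG1+ (log2 fold change 1.46 ± 0.22). Plin2, a coat protein of lipid droplets, was at 68.4, 74.5 and 85.5 CPM against 137, 119 and 113 CPM, which left a clear gap between the groups. Abca1, which exports cholesterol onto apolipoproteins, was at 321, 253 and 212 CPM against 374, 673 and 585 CPM. Lrp1, a receptor for APOE-bearing particles, was at 612, 509.9 and 300.0 CPM against 798, 1276 and 1023 CPM. All 4 of these genes were called. Under the length offset Lrp1 had a log2 fold change of 0.70 in place of 1.12. Their adjusted p in the 6 libraries alone lay between 0.0719 and 0.0984. Pparg, a nuclear receptor that controls lipid genes, had 0 counts in the 3 ARG1- libraries and stood at 0.571, 3.08 and 1.22 CPM in ARG1+, and it was called as well.

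Cholesterol and fatty acid synthesis moved less. Of 34 tested members, 7 were above, 1 was below and 1 was called, Scd2, a desaturase that makes monounsaturated fatty acids. It was at 271, 129 and 157 CPM in ARG1- and 322, 433 and 460.5 CPM in ARG1+. The list's median was 0.17, and without S9 it was -0.03.

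**Figure D1:**
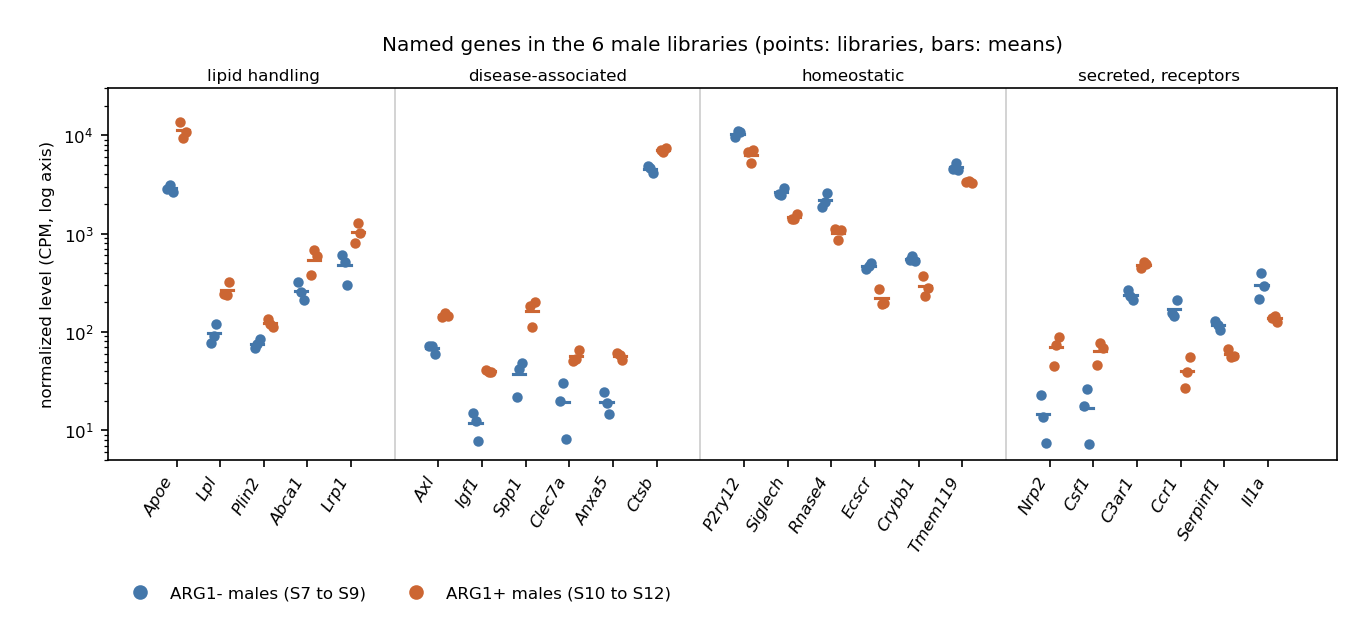
Normalized level in CPM (log axis) of 23 named genes in the 3 ARG1- male libraries (blue) and the 3 ARG1+ male libraries (orange), with points for libraries and bars for means. The lipid handling and disease-associated genes shown sit higher in ARG1+, the homeostatic genes shown lower, and Ccr1, Serpinf1 and Il1a lower. Only genes without overlap of the groups are drawn. Not drawn are the 18 of 39 homeostatic genes that overlap and the 4 above, and the 17 of 43 disease-associated genes that overlap and the 3 below.

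Genes of disease-associated and axon tract microglia showed the same direction, with exceptions. Of 43 tested members of 46 listed, 23 were above and 3 below, and 12 were called higher and 1 lower, with a median of 0.59. Axl, a receptor for dying cells, was at 71.5, 72.7 and 59.9 CPM in ARG1- and 143, 155 and 144 CPM in ARG1+ (1.11 ± 0.15). Igf1, a growth factor for neurons and oligodendrocytes, was at 15, 12.5 and 7.83 CPM against 41.3, 38.7 and 39.2 CPM (1.75 ± 0.29). Spp1, the secreted adhesion protein osteopontin, was at 21.8, 42.3 and 48.6 CPM against 182, 112 and 201 CPM (2.13 ± 0.36). In each of the 3 genes every ARG1+ library stood well above every ARG1- library. Anxa5, which binds exposed phosphatidylserine, was at 24.7, 18.8 and 14.6 CPM against 60.95, 58.8 and 51.9 CPM. Clec7a, a receptor for fungal glucans that marks activated microglia, was at 19.99, 30.2 and 8.19 CPM against 50.4, 53.6 and 65.3 CPM. Csf1, a growth factor for microglia, was at 17.4, 26.3 and 7.33 CPM against 46.3, 77.0 and 68.9 CPM. All of these genes were called.

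Some members of that list were not called although the groups did not overlap. Gpnmb, a lysosomal glycoprotein, had 0 counts in S7 and S8 and 5.08 CPM in S9, against 15.9, 25.7 and 24.5 CPM in ARG1+. Itgax, an integrin chain, was at 2.56, 0 and 7.09 CPM against 11.3, 11.97 and 11.8 CPM, and Lgals3, galectin-3, at 0.613, 2.25 and 2.87 CPM against 7.06, 7.33 and 5.90 CPM. The spread of these genes lay in the ARG1- libraries. Tyrobp, the signalling adaptor of TREM2, ran the other way and was called lower, at 1263, 1461 and 1228 CPM in ARG1- and 868, 417 and 624 CPM in ARG1+ (log2 fold change -1.05, and -0.40 under the length offset).

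The study's own list of genes most increased in ARG1+ microglia was chosen on libraries that include these 6, so its count is not independent evidence of its direction. Of its 20 genes, 19 were above in all 3 ARG1+ male libraries and were called, and the median was 2.06. Cd274, the checkpoint ligand PD-L1, was the exception, at 2.27, 6.22 and 4.84 CPM in ARG1- and 3.59, 5.55 and 4.50 CPM in ARG1+, a log2 fold change of 0.03 ± 0.52. Nrp2, a co-receptor for semaphorins and vascular growth factors, was at 22.8, 13.8 and 7.45 CPM against 45.2, 74.2 and 89.5 CPM. Snx29, a sorting nexin, was at 18.04, 35.3 and 51.3 CPM against 74.7, 171 and 132 CPM, and Nbl1, a secreted antagonist of bone morphogenetic proteins, at 2.83, 1.51 and 2.42 CPM against 8.91, 9.33 and 8.73 CPM. Dtx3, a ubiquitin ligase of the Deltex family, was at 5.68, 7.27 and 6.37 CPM against 21.8, 18.1 and 11.7 CPM, and Sap25, a subunit of a histone deacetylase complex, at 33.4, 45.4 and 28.4 CPM against 125, 164 and 97.0 CPM. Among the 15 genes that the study's text discusses, 9 were above, 8 were called higher, and 6 overlapped. The 6 were Il6, Tnf, Il1b, Cd68, Mrc1 and C3.

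Homeostatic genes were lower in part. Of 39 tested members of 40 listed, 17 were below and 4 above, 8 were called lower and 0 higher, and the median was -0.15. Siglech, a sialic acid receptor, was at 2503, 2477 and 2896 CPM in ARG1- and 1390, 1394 and 1587 CPM in ARG1+ (-0.85 ± 0.11). Rnase4, a secreted ribonuclease, was at 1875, 2067 and 2571 CPM against 1114, 851 and 1084 CPM (-1.09 ± 0.16). Ecscr, a small membrane protein first described in endothelium, was at 434, 469 and 505 CPM against 274, 194 and 195 CPM (-1.09 ± 0.17). The groups stood well apart for all 3 genes. P2ry12, with the values given above, was lower by a log2 fold change of -0.71 ± 0.13, and Tmem119, a surface protein of microglia, was at 4487, 5186 and 4448 CPM against 3359, 3421 and 3287 CPM. Sall1, a transcription factor that maintains microglial identity, lay above in all 3 ARG1+ libraries at 374, 577 and 488 CPM against 306, 324 and 349 CPM without being called. Cx3cr1, the fractalkine receptor used in the sort, overlapped between 3142 and 5429 CPM. The drop was therefore not shared by all members of the list. Under the length offset it was smaller in some named genes, with log2 fold changes of -0.65 for Rnase4, -0.68 for Ecscr and -0.47 for P2ry12. For Tmem119 it was -0.19 (adjusted p = 0.359) in place of -0.49. The median of the list was not smaller under that offset, at -0.18, with 14 members below and 5 above.

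Among the 39 tested lineage transcription factors, 7 were above and 4 were below, 1 was called higher and 1 lower, and the median was 0.31. That median was 0.15 under the length offset, with 8 members above and 4 below. Maf, a leucine zipper factor, was called lower, at 222, 303 and 279 CPM in ARG1- and 152, 119 and 143 CPM in ARG1+. The 25 tested genes of the transforming growth factor beta pathway had 3 members above and 0 below, and Ltbp3, which holds the latent growth factor in the matrix, was called higher at 3.84, 2.25 and 2.33 CPM against 5.76, 12.5 and 7.12 CPM.

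Lysosomal genes stood higher more often than lower in ARG1+ males, with called members in both directions. Of 67 tested members of 74 listed, 27 were above and 7 below, 8 were called higher and 4 lower, and the median was 0.17. That median was 0.265 under the length offset, against 0.102 over all genes, with 27 members above and 5 below. Ctsb, the protease cathepsin B, was at 4901, 4686 and 4130 CPM in ARG1- and 7108, 6724 and 7348 CPM in ARG1+ (0.63 ± 0.10). Gaa, which degrades glycogen in lysosomes, was at 124, 145 and 146 CPM against 237, 366 and 363 CPM (1.22 ± 0.20), and Ctsa, a protective carboxypeptidase, at 1788, 1777 and 1538 CPM against 2449, 2385 and 2360 CPM. Lipa, the acid lipase that frees cholesterol from its esters, was at 139, 118 and 132 CPM against 189, 212 and 200.4 CPM. Cst3, the protease inhibitor cystatin C, was lower at 16070, 18920 and 15690 CPM against 10640, 6011 and 9406 CPM. Its log2 fold change was -0.96, and -0.43 under the length offset. Ctss, cathepsin S, was called lower as well, at 6433, 6923 and 7138 CPM against 5628, 4337 and 4593 CPM.

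The E-box CACGTG is the core of the site bound by TFEB and TFE3, the factors that drive lysosomal genes, and it was searched on both strands of the 250 bases before each RefSeq transcription start (GRCm38.p6). It was present in 9.96% of the 9728 tested genes that have such a sequence, in 11.9% of the 235 called higher, in 9.25% of the 346 called lower and in 30.2% of 53 lysosomal genes. TGACTCA, the site of AP-1 factors, was in 3.76%, 5.53% and 3.76% of all genes, those called higher and those called lower, and TGACGTCA, the site of CREB factors, in 3.06%, 2.13% and 3.47%. The shares of genes called higher and lower thus lay near those of all genes. Of 6 lysosomal genes called higher with a promoter sequence, 3 held CACGTG, and these stretches are shown with the motif in capitals because they carry it within genes described here. A match describes letters only. The stretch of Gaa is at chr11:119267793-119267858, that of Ctsa at chr2:164833731-164833772 and that of Glb1, which encodes lysosomal beta-galactosidase, at chr9:114401000-114401065, all on the plus strand.
Gaa: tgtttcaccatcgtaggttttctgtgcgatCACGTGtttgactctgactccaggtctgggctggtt
Ctsa: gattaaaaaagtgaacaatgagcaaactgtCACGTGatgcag
Glb1: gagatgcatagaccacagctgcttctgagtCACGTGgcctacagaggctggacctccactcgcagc

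Engulfment receptors included genes called in both directions. Of 35 tested members of 42 listed, 12 were above and 6 below, 6 were called higher and 4 lower, with a median of 0.45. Mertk, a receptor of the same family as Axl, was at 466, 388 and 292 CPM in ARG1- and 485, 772 and 769 CPM in ARG1+, and Stab1, a scavenger receptor, at 188, 286 and 219.8 CPM against 379, 676 and 510.3 CPM. Both were called higher. The 4 called lower were Tyrobp, Fcer1g, Fcgr3 and Fcgr1, that is a signalling adaptor, the shared chain of the Fc receptors and 2 receptors for antibodies. Fcgr3 was at 1885, 2257 and 2422 CPM against 1610, 1270 and 1505 CPM (-0.58 ± 0.14), and its log2 fold change was -0.16 (adjusted p = 0.501) under the length offset.

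Complement genes gave 4 of 16 tested members above and 2 below, with 1 called in each direction. C3ar1, the receptor for the fragment C3a, was at 269, 234 and 212 CPM in ARG1- and 442, 509 and 492 CPM in ARG1+ (1.01 ± 0.14) and was called higher. C1qb, a chain of the first component, was called lower at 7252, 8593 and 7393 CPM against 6133, 4301 and 5179 CPM (-0.57 ± 0.14). Under the length offset the log2 fold change of C1qb was 0.01 (adjusted p = 0.954).

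Secreted growth factors and matrix genes had a larger share of members above than genes in general, but some of these members could only come out above. Of 44 tested members of 67 listed, 19 were above and 3 below, 8 were called higher and 1 lower, and the median was 0.57. Besides Igf1, Spp1, Nrp2 and Nbl1, the members called higher were Hgf, Adam8, F2r and Mmp12, whose ARG1- libraries held at most 1 count each. In the 6 libraries, Hgf, Adam8, F2r and Mmp12 entered the test through the ARG1+ libraries, so their direction is a description only. They are among the 19 above and the 8 called higher, and the list was not counted without such members. Serpinf1, an inhibitor of new vessel growth, was the member called lower, at 128, 118 and 105 CPM in ARG1- and 67.5, 55.6 and 56.3 CPM in ARG1+ (-0.97 ± 0.16).

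Chemokine genes had 4 of 25 tested members above and 4 below, close to the share in all genes. Ccr1, a receptor for inflammatory chemokines, was the called member and among the largest decreases of the contrast. It was at 156, 144 and 210.2 CPM in ARG1- and 26.8, 38.8 and 55.7 CPM in ARG1+, so the highest ARG1+ library was well under the lowest ARG1- library (-2.07 ± 0.30). Ccl3 and Ccl4, ligands that attract leukocytes, were above in all 3 ARG1+ libraries without being called, at 14.04, 7.27 and 4.396 CPM against 39.5, 19.2 and 24.0 CPM for Ccl3 and 7.70, 5.58 and 6.28 CPM against 33.4, 15.4 and 20 CPM for Ccl4.

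Genes of interleukin-4 activation gave 5 of 17 tested members above and 0 below, with a median of 0.49 and 2 called. These were Pparg and Mgl2, a galactose-binding lectin of macrophages that stood at 0.982, 1.84 and 1.97 CPM in ARG1+. Both had 0 counts in the 3 ARG1- libraries, so in the 6 libraries they entered the test through the ARG1+ libraries. Their direction is therefore a description only. Il4ra, the receptor of interleukin-4, was at 242, 228 and 208 CPM against 267, 359.6 and 323 CPM (0.49 ± 0.15, not called). Of 30 listed genes, 9 had 0 counts in all 6 libraries, among them Arg1, Retnla and Chil3. Of the 22 tested genes of arginine and polyamine metabolism, 5 were above, 5 were below and 0 were called in either direction, and the smallest adjusted p in the 6 libraries was 0.154. The 2 most abundant were Slc3a2, a chain of amino acid transporters, at 605, 622 and 497 CPM against 654, 642 and 629.6 CPM, and Atp13a2, a lysosomal polyamine exporter, at 328, 434 and 259 CPM against 465, 515 and 476 CPM.

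**Figure D2:**
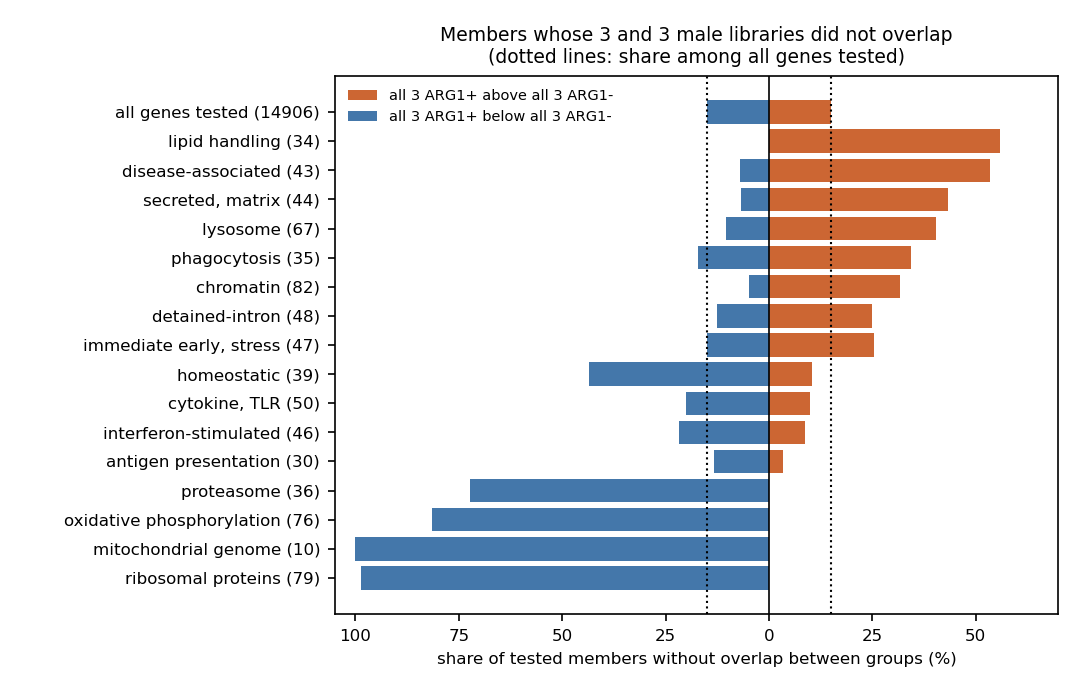
Share of the tested members of 16 lists (number in brackets; cell type lists, the study's lists and some others not drawn) whose 3 ARG1+ male libraries all lay above (orange, right) or below (blue, left) the 3 ARG1- male libraries. Dotted lines mark 15% and 15.1%, the shares among all genes tested. Among the lists drawn, lipid handling (19 of 34) reaches farthest to the right, and ribosomal proteins (78 of 79) and the mitochondrial genome (10 of 10) farthest to the left.

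Transcripts for ribosomal proteins, oxidative phosphorylation and the proteasome were lower in ARG1+ males, most uniformly so for ribosomal proteins. Of 79 tested genes for cytosolic ribosomal proteins, 78 were below and 0 above, 55 were called lower and 0 higher, and the median was -1.24. Rpl7, a protein of the large subunit, was at 138, 136 and 171 CPM in ARG1- and 70.7, 43.6 and 56.5 CPM in ARG1+ (-1.38 ± 0.22). Rps3, a protein of the small subunit, was at 270.5, 288 and 269 CPM against 159, 92.2 and 116 CPM (-1.17 ± 0.21), and Rack1, a scaffold on the small subunit, at 170.4, 172 and 195 CPM against 105, 81.0 and 83.6 CPM. In these genes S11 was the lowest of the 3 ARG1+ libraries and S10 the highest. Eef1a1, the factor that brings aminoacyl-tRNA to the ribosome, was at 934, 959 and 1122 CPM against 509, 402 and 452 CPM. Ribosomal protein genes share reads with many processed pseudogenes, so the values of single genes are uncertain to that extent.

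Nuclear genes of oxidative phosphorylation had 62 of 76 tested members below and 0 above, 32 called lower and a median of -0.89. Ndufa4, a subunit of the respiratory chain, was at 66.8, 75.8 and 66.2 CPM in ARG1- and 30.7, 15.8 and 22.6 CPM in ARG1+ (-1.60 ± 0.27), and Ndufv2, a subunit of complex I, at 94.8, 101 and 114 CPM against 57.6, 35.6 and 44.4 CPM. Transcripts of the mitochondrial genome lay below for all 10 tested genes, 8 of which were called, with a median of -1.53. Among them mt-Cytb, a subunit of complex III, was at 1498, 1464 and 1579 CPM against 651, 401 and 620.1 CPM (-1.44 ± 0.19), and mt-Nd1, a subunit of complex I, at 1277, 1490 and 1226 CPM against 548, 257 and 521 CPM. The proteasome had 26 of 36 subunits below and 0 above, 16 called lower and a median of -0.69. Psma7, a subunit of its core, was at 131, 168 and 172 CPM against 94.8, 60.97 and 79.4 CPM. Glycolysis was not shifted in this way. Of its 28 tested genes 5 were below and 3 above, and Ldhb, a lactate dehydrogenase, and Taldo1, an enzyme of the pentose phosphate pathway, were called lower. Under the length offset their log2 fold changes were -0.43 in place of -0.88 for Ldhb and -0.40 in place of -0.72 for Taldo1, and those of mt-Cytb and mt-Nd1 were -0.88 and -1.0.

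Several of these lists consist of short transcripts. Among genes with a mean over 10 CPM, the median log2 fold change was -0.49 for 259 genes with up to 1000 exonic bases, -0.50 for 821 genes of up to 2000, -0.17 for 2593 genes of up to 4000, 0.12 for 3438 genes of up to 8000 and 0.30 for 1584 longer genes. The median exonic length was 1781 bases for ribosomal protein genes, 1091 for the mitochondrial genome, 2804 for the proteasome and 9212 for the chromatin genes described next, against 3627 over all genes tested. Under the length offset the medians were -0.82 for ribosomal proteins, -0.50 for oxidative phosphorylation, -0.94 for the mitochondrial genome and -0.40 for the proteasome, and 76, 45, 10 and 22 members were still below. Apoe had a log2 fold change of 2.28 with an adjusted p of 6e-04 under that offset. The part of length in the results beyond this offset was not tested.

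**Figure D3:**
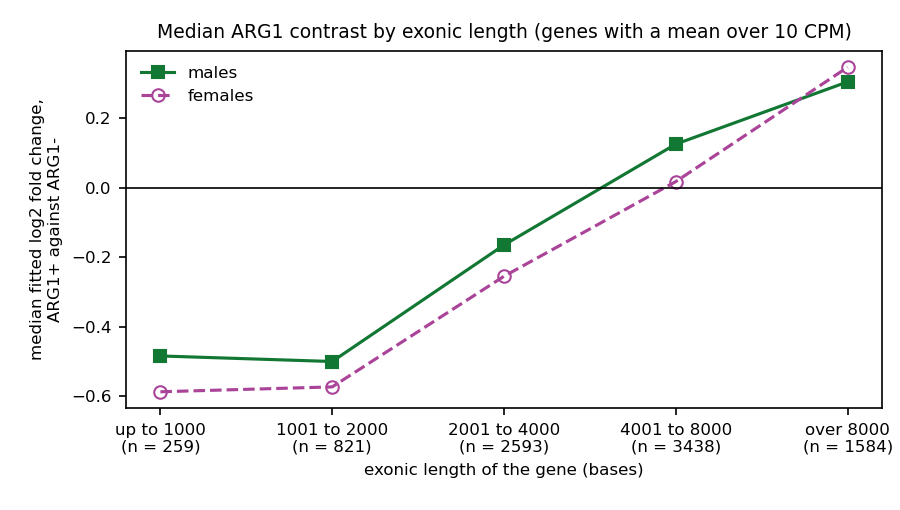
Median log2 fold change of ARG1+ against ARG1- by exonic length class, for genes with a mean over 10 CPM, in males (squares) and in females (circles) in the fit of 4 groups. Short genes lie below 0 and genes over 8000 bases above 0 in both sexes, running from -0.48 in the shortest to 0.30 in the longest class in males and from -0.59 to 0.35 in females.

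Chromatin genes, which are long, were higher. Of 82 tested members, 26 were above and 4 below, 6 were called higher and 0 lower, and the median was 0.47, or 0.20 under the length offset with 20 above. Dnmt3a, which methylates DNA, was at 57.0, 66.2 and 46.4 CPM in ARG1- and 96.0, 139.7 and 145 CPM in ARG1+ (1.17 ± 0.22, and 0.76 under the length offset), and Tet3, which oxidizes methylated cytosine, at 25, 30.2 and 17.9 CPM against 58.3, 77.3 and 53.2 CPM (1.37 ± 0.26). Smarcc2, a subunit of a remodelling complex, was at 50.7, 30.8 and 42.8 CPM against 68.8, 160.2 and 108 CPM.

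Transcripts that keep introns in the nucleus and the kinases and cyclins that control their splicing were mixed. Of 48 tested members of 51 listed, 12 were above and 6 below, 7 were called higher and 1 lower, and the median was 0.08. The median changed sign to -0.13 under the length offset, with 10 members above and 9 below. Leng8, an RNA export factor, was at 59.5, 71.7 and 59.3 CPM in ARG1- and 174, 276 and 184 CPM in ARG1+ (1.74 ± 0.22). Ccnl2, a cyclin that regulates splicing, was at 132, 141 and 129.7 CPM against 281, 281 and 244 CPM (1.0 ± 0.13), and Rsrp1, a serine and arginine rich protein, at 1292, 1373 and 1190 CPM against 2811, 2339 and 2109 CPM (0.91 ± 0.13). Neat1, the long non-coding RNA that builds paraspeckles, was at 10.1, 2.96 and 7.15 CPM against 35.1, 48.5 and 37.9 CPM. Tra2b, a splicing factor, went the other way with little spread, at 100.3, 106 and 105 CPM against 45.5, 42.4 and 44.4 CPM (-1.23 ± 0.14).

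A set of genes was at or near 0 in the ARG1- males. In the 6 libraries, 178 tested genes, 100 of them protein coding, had at most 3 counts in each ARG1- library. In turn, 4 genes had at most 3 counts in each ARG1+ library. Since genes were tested where enough libraries had counts, these genes entered through the ARG1+ libraries and could only come out higher. Their counts are thus a description, and none of the 178 had a mean over 8.07 CPM. Members of the lists that belong to the 178, among them Pparg, Mgl2, Cmpk2, Ifi44 and Hspb1, carry the same limit. Nedd9, a docking protein of integrin signalling, had 0, 0 and 0 counts in ARG1- and 269, 488 and 260 counts in ARG1+, at least 89.4-fold higher against a floor of 3 counts per library. Mmp12, the macrophage elastase, had 0 counts in ARG1- and 28, 602 and 107 counts in ARG1+ (at least 61.1-fold). Cmpk2, a mitochondrial nucleotide kinase induced by interferon, had 0 counts against 185, 291 and 198 counts (at least 60.1-fold), and Adam8, a metalloprotease, 0 counts against 161, 150 and 67 counts (at least 32.7-fold). Ppp1r26, a regulator of protein phosphatase 1, had 1, 2 and 0 counts against 180, 197 and 319, and F2r, the thrombin receptor, 0, 1 and 0 counts against 64, 179 and 167. Rhbdl1, a membrane protease, had 0 counts in ARG1- and 1.07 to 3.55 CPM in ARG1+. Colec12, a scavenger receptor with a collagen domain, Trim6, a ubiquitin ligase, and Hgf, hepatocyte growth factor, followed the same pattern, with at most 0.0673 CPM in any ARG1- library and between 0.805 and 3.19 CPM in ARG1+.

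Some of these genes, which were picked for low counts in ARG1- males, had counts in ARG1- females. The ARG1- females were not tested against the ARG1- males. Nedd9 had 104, 41 and 391 counts in the ARG1- females, Cmpk2 116, 530 and 0, Ppp1r26 34, 248 and 221, and F2r 66, 125 and 190, so most ARG1- female libraries held these transcripts. Mmp12 and Adam8 had 0 counts in all 3 ARG1- females as in the ARG1- males. For the ARG1 contrast in males minus females, edgeR's adjusted p was 0.141 for Nedd9, 0.428 for Cmpk2 and 0.217 for Ppp1r26 and F2r. None passed. Mmp12 and Adam8 thus had 0 counts in all 6 ARG1- libraries of the series, whereas Nedd9 did not.

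**Figure D4:**
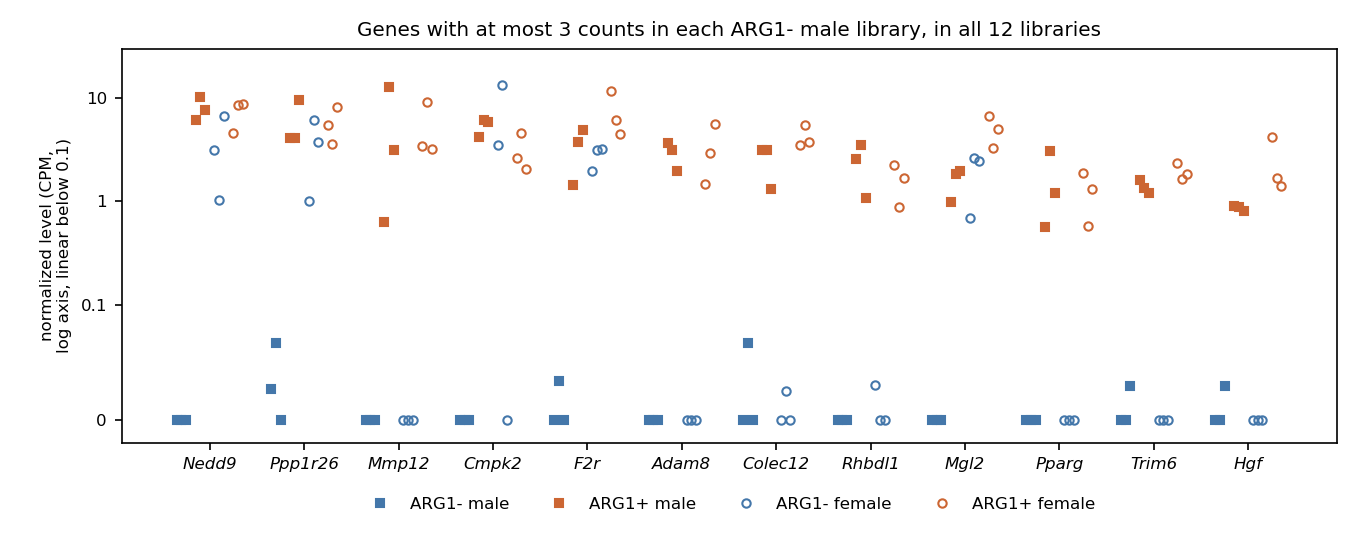
Normalized level in CPM (log axis, linear below 0.1) of 12 genes with at most 3 counts in each ARG1- male library, in all 12 libraries, with squares for males, circles for females, blue for ARG1- and orange for ARG1+. Nedd9, Ppp1r26, F2r and Mgl2 are near 0 in ARG1- males but not in ARG1- females, whereas Mmp12, Adam8, Pparg, Trim6 and Hgf are near 0 in both.

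Among the remaining called protein-coding genes with at least 10 CPM in 1 population, the largest increases after Nynrin were Glis3, Cplane1, Ajm1 and Spg11. Nynrin, a gene of retroviral origin, was at 0.0799, 0.269 and 0.0897 CPM in ARG1- and 8.54, 11.7 and 12.7 CPM in ARG1+ (6.22 ± 0.67). Its ARG1- levels were at or near that of 3 counts, which is 0.0799 CPM in S7 and 0.101 CPM in S8. Nynrin thus entered the test through the ARG1+ libraries, and its direction is a description only. Glis3, a zinc finger factor, was at 1.47, 1.11 and 0.209 CPM against 10.2, 16.7 and 15.6 CPM (3.92 ± 0.73), and Spg11, needed to renew lysosomes, at 7.62, 8.85 and 0.957 CPM against 28.6, 50.3 and 37.6 CPM. Zfyve26, which acts together with Spg11, was at 1.25, 11.7 and 5.44 CPM against 28.01, 55.8 and 36.01 CPM, and Aspm, a spindle protein, at 6.34, 3.10 and 4.49 CPM against 12.4, 41.7 and 26.1 CPM. Gramd1b, which moves cholesterol from the plasma membrane to the endoplasmic reticulum, was at 3.33, 3.87 and 3.14 CPM against 21.5, 19.5 and 12.2 CPM (2.36 ± 0.36). Of the 12 largest increases, Nrp2 alone passed in females as well. The fitted log2 fold changes in females were 0.77 for Nynrin, 0.78 for Glis3, -0.61 for Spg11 and 0.66 for Gramd1b. These 12 genes were picked by their male fold changes, so smaller values in females do not show a difference between the sexes. For that difference edgeR called 0 of 16407 genes and DESeq2 called 218. The largest decreases besides Ccr1 were Fbln1, a matrix protein, at 8.58, 18.9 and 12.9 CPM against 2.15, 2.68 and 1.16 CPM (-2.75 ± 0.50), and Zfp931, a zinc finger gene, at 13.8, 29.1 and 9.90 CPM against 3.27, 2.79 and 4.05 CPM (-2.38 ± 0.49). Max, the partner of MYC, was at 15, 16.1 and 19.9 CPM against 4.87, 4.88 and 5.54 CPM (-1.74 ± 0.30).

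Genes for cytokines, Toll-like receptors and inflammasomes did not stand higher as a list in ARG1+ males. Of 50 tested members, 5 were above (10%) and 10 below (20%), against 15% and 15.1% of all genes tested. The 3 called members were all lower. The list's median was 0.05. Under the length offset it was 0.215, with 6 members above and 6 below, against a median of 0.102 over all genes. Il1a, interleukin-1 alpha, was at 214, 394 and 293 CPM in ARG1- and 139.7, 144 and 127 CPM in ARG1+ (-1.13 ± 0.23, and -0.75 under the length offset), Pycard, the inflammasome adaptor ASC, at 326, 298 and 311 CPM against 218, 178 and 183 CPM, and Ly86, a partner of a Toll-like receptor relative, at 1159, 1240 and 1403 CPM against 818, 680.3 and 790.5 CPM. Tnf and Il6 overlapped between the groups and were under 4 CPM in every library. Interferon-stimulated genes had 4 of 46 above and 10 below, with 2 called in each direction. Ifi27l2a and Slfn2 were lower, the former at 33.0, 28.6 and 22.0 CPM against 11.9, 4.56 and 7.18 CPM, and Cmpk2 and Ifi44 were higher from 0 counts in ARG1-. Under the length offset the log2 fold changes of Ifi27l2a and Slfn2 were -1.16 and -0.37 in place of -1.82 and -0.81. Antigen presentation had 1 of 30 tested genes above, 4 below and 0 called, with a smallest adjusted p of 0.13 in the 6 libraries, and its most abundant members were Vsir, an inhibitory checkpoint receptor, and B2m, the light chain of class I molecules.

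Immediate early and stress genes, which respond to handling of the tissue, had 12 of 47 tested members above and 7 below, with a median of 0.11. That median was 0.26 under the length offset, against 0.102 over all genes, with 16 members above and 3 below. Atf3, a stress-induced factor, was called higher at 14.4, 8.01 and 12.9 CPM in ARG1- and 46.8, 27.8 and 26.4 CPM in ARG1+, and Hspe1, a mitochondrial chaperonin, was called lower at 28.9, 39.2 and 30.5 CPM against 18.2, 10.3 and 13.5 CPM. The log2 fold change of Hspe1 was -1.23, and -0.76 under the length offset. Hspb1, a small heat shock protein, was called higher from 0 counts in ARG1- and 0.417 to 0.612 CPM in ARG1+. Cell cycle genes had 5 of 62 above and 6 below, which is under the share in all genes in both directions.

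Integrin, tetraspanin and adhesion genes had 10 of 42 tested members above and 3 below. Itga5, a chain of the fibronectin receptor, was called higher at 17.3, 27.4 and 14.8 CPM in ARG1- and 40.4, 76.7 and 62.1 CPM in ARG1+, and Cd53, a tetraspanin of leukocytes, lower at 2389, 2304 and 3217 CPM against 1555, 1132 and 1559 CPM (-0.90, and -0.48 under the length offset). Of 21 tested host genes of small nucleolar RNAs, 1 was above and 2 below, and 2 were called, both lower, among them the ribosomal protein gene Rpl23a (-1.62, and -1.0 under the length offset).

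Markers of other cells were present at different summed levels in the 2 populations for several lists. Of 14 border macrophage markers 11 were tested, 4 were above and 0 below, 2 were called, Mgl2 and Stab1, and the median was 1.17. The summed level of the whole list was 413 to 472.5 CPM in ARG1- and 603 to 939 CPM in ARG1+, and 2 members had 0 counts in all 6 libraries. Mrc1, which encodes the CD206 used to exclude macrophages, was read at 133, 119 and 106 CPM in ARG1- and 111, 160.4 and 233 CPM in ARG1+ and overlapped. Summed monocyte markers were 5.15 to 12.7 CPM in ARG1- and 3.86 to 7.81 CPM in ARG1+, neutrophil markers 3.92 to 6.28 and 4.92 to 10.1 CPM, and T, NK and B cell markers under 4.34 CPM in every library with 7 of 12 at 0 in all 6. Oligodendrocyte markers were 281.6 to 388.5 CPM in ARG1- and 198.6 to 240.3 CPM in ARG1+, astrocyte markers 182.1 to 197.3 and 131.3 to 153.3 CPM, and neuron markers 10.6 to 20.6 and 2.62 to 8.02 CPM, so these 3 lists were lower in ARG1+ with no overlap. Endothelial and mural markers were 30.1 to 42.4 CPM in ARG1- and 45.5 to 57.0 CPM in ARG1+, and erythroid genes 4.10 to 4.88 and 0 to 3.404 CPM. No member of these non-macrophage lists was called. Their part in the results was not tested.

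The same contrast in the 6 female libraries, taken from the fit of 4 groups, called 421 genes higher (2.57%) and 675 lower (4.11%). Of the 823 genes called in males, 780 had the same sign in females and 390 also passed there. Apoe had a log2 fold change of 1.96 ± 0.13 in males and 1.48 ± 0.13 in females in that fit, a difference of 0.48 ± 0.18 (adjusted p = 0.483). A test of the difference between the sexes called 0 of 16407 genes with edgeR, with 1525 at an unadjusted p under 0.05 and a smallest adjusted p of 0.140, whereas DESeq2 called 218. Medians in the 2 sexes were close for ribosomal proteins (-1.24 in males and -1.18 in females), oxidative phosphorylation (-0.88 and -0.82), the proteasome (-0.68 and -0.75) and lipid handling (0.66 and 0.61). They lay farther apart for the mitochondrial genome (-1.53 and -0.47, with 8 and 0 members called) and for detained-intron genes (0.08 and 0.72, with 7 and 22 called higher). No member of either list passed the edgeR test of the difference, with smallest adjusted p values of 0.428 and 0.222. The length offset was not applied to the medians compared between the sexes. Lysosomal genes had 8 members called higher and 4 lower in males (median 0.17) and 2 higher and 10 lower in females (median -0.07), and the smallest adjusted p of a difference between the sexes was 0.483. Homeostatic genes had 8 members called lower in males and 15 in females, and medians of -0.15 and -0.38.

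**Figure D5:**
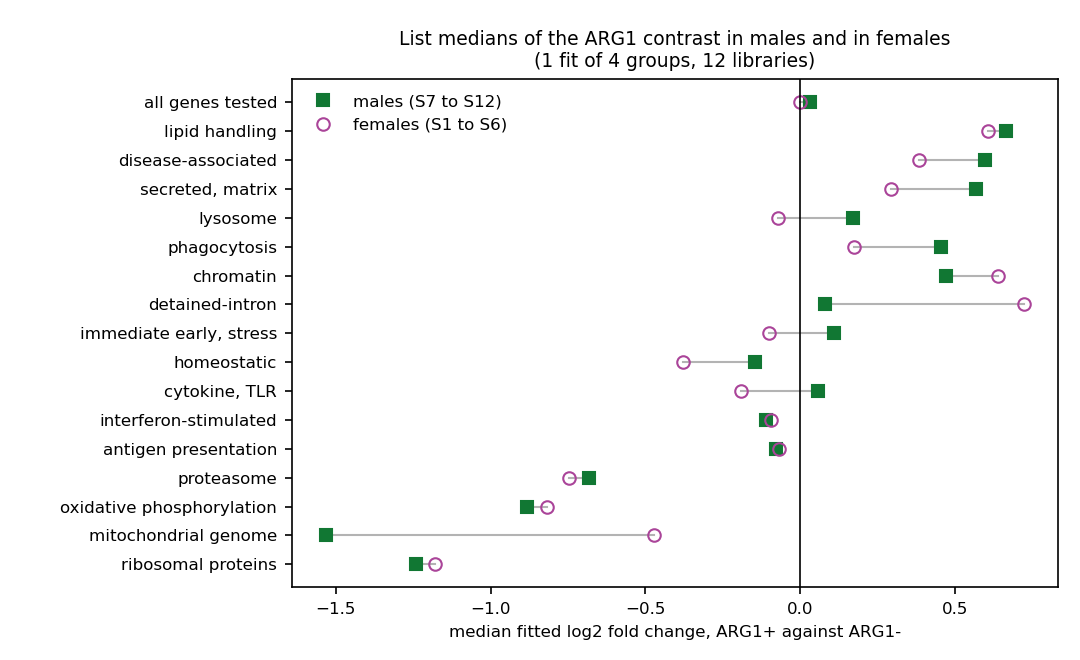
Median fitted log2 fold change of ARG1+ against ARG1- for 16 lists and all genes tested in males (filled squares) and in females (open circles), from the fit of 4 groups over 12 libraries. Among the lists drawn, the mitochondrial genome (-1.53 and -0.47) and detained-intron genes (0.08 and 0.72) show the widest gaps.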

How the data were processed

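RNA of sorted microglia was amplified with SMART-Seq v4 and made into Nextera XT libraries, which do not mark strand. The authors deposited raw counts per gene for 12 libraries. Their processing notes name bcl2fastq 2.20.0, STAR 2.6.1d, featureCounts 1.5.1 and DESeq2 1.28.1 with GRCm38, and overlapping and antisense genes cannot be told apart in such counts. All columns were mapped to samples (0 columns were not used), 55227 of 55487 genes were annotated, and the rest held 0.0333% of counts.

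From these counts, the 6 male libraries (30954399 to 46569667 counts) were filtered with filterByExpr, genes on X and Y were left out, and 14906 genes were scaled by TMM and tested with edgeR 4.0.16 (glmQLFit and glmQLFTest in R 4.3.3) with Benjamini-Hochberg adjustment at 0.05. Every p-value is two-sided. DESeq2 1.42.0 and a fit of 4 groups over 12 libraries were alternatives. Levels are CPM. The scripts were tested on simulated data. Intervals and limits from a count of 0 (3 counts) cover counting error only.

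The members and gene lists were chosen with earlier results of these data known. Named genes were the 12 largest increases and decreases among called protein-coding genes with at least 10 CPM and no overlap, up to 4 called members of each list (where none was called, the 2 most abundant), genes of the study's lists, and the 4 most abundant called genes at or under 3 counts in the other population. Because the 6 libraries gave 1 call, this rule was applied to the fit of 4 groups, a choice made after seeing the data. Other genes named, such as Gpnmb, Itgax, Ccl3, Neat1 and Sall1, were chosen after their values were seen. Some genes that the rule would name are not reported here.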

Additional observations from a re-analysis of the deposited data

Results flagged for a closer look

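In 2 of the named genes the ARG1+ and ARG1- libraries separated in opposite directions in the sexes, while the test of the difference did not pass. Il4ra, the interleukin-4 receptor, was higher in all 3 ARG1+ males than in all 3 ARG1- males and lower in all 3 ARG1+ females than in all 3 ARG1- females. In females it was at 424.3, 298.3 and 318.6 CPM in ARG1- and 286.9, 295.8 and 232.3 CPM in ARG1+. The male log2 fold change minus the female value was 0.8431, with an adjusted p of 0.435 in edgeR's quasi-likelihood test. Slc3a2, a chain of amino acid transporters, showed the same arrangement, with 838.3, 632.6 and 600.0 CPM in ARG1- females and 532.8, 563.6 and 507.5 CPM in ARG1+ females. Its difference between the sexes was 0.531 (adjusted p = 0.483).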

How the results depend on the processing

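The comparison on 6 libraries called 1 gene, higher in ARG1+ (0 lower), and gave 1 with DESeq2's size factors, without a filter, with X and Y kept, on thinned counts and with the length offset. It gave 0 with upper-quartile factors, with a term for the libraries with higher label numbers and with robust estimation, and between 0 and 1 with a library left out (1 without S8, a gene other than Apoe, and 0 without each of the other 5, so Apoe lost its call in all 6). With at least 10 counts in all 6 libraries it gave 500 genes, 216 higher and 284 lower, with DESeq2 1728 (850 and 878), with DESeq2 and a prior 1678 (745 and 933), and in the fit of 4 groups 823 (333 and 490). Beyond 1.5-fold it gave 0 genes (1296 at an unadjusted p under 0.05), 1 with the stricter filter, 10 in the fit of 4 groups and 0 to 1 with a library left out. The test between the sexes gave 0 genes, 218 with DESeq2 and 0 to 10 with a library left out (10 without S7 and 3 without S3). The adjusted p of Apoe ranged from 3.1e-26 (DESeq2 Wald test with a prior) to 0.291 (edgeR without S12).

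Of values for named genes, 11 changed sign, 9 lost and 435 gained a call, and 2230 did neither. Cd68 was 0.0357 without a filter, 0.546 with the length offset and -0.0977 to 0.0665 with a library left out. Cd274 ranged from -0.282 to 0.372, and Tnf from -0.861 to 0.151, with 0.0483 under the length offset, where C1qb was 0.0125. The median of immediate early and stress genes was -0.0308 with the stricter filter, and that of sterol genes ranged from -0.0251 to 0.248 with a library left out. A further 53 list medians moved by more than the spread of libraries and 609 did not. The length offset and robust estimation were chosen after seeing the data. The causes were not tested. No paired analysis was possible because the groups compared share no replicate numbers, although both populations were sorted from the same litters.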
